A study of Mus musculus with 4 samples.

Results

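Molecular chaperones of the Hsp70, Hsp90, Hsp40 and chaperonin families, with their co-chaperones and 2 heat shock transcription factors, were followed in mouse gastrocnemius muscle. The set of 48 genes was chosen by symbol. A probe set is the group of short oligonucleotides on the array that reports 1 transcript. Of the 48 genes, 45 were among the 12393 genes with a probe set and 43 had a signal above the filter on low values. Each gene is given by its probe set of highest mean signal, and every probe set of Hspa1a and Hspa1b is shown.

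The tested animals were MCK-PPARb transgenic mice, which overexpress PPARbeta (gene Ppard), a nuclear receptor that switches on genes of fatty acid use, in muscle. MCK stands for muscle creatine kinase, whose regulatory sequence directs transgenes to striated muscle. Their controls were non-transgenic (NTG) littermates, called wild-type in the labels. All mice were 6 weeks old, no treatment is given, and each group has 2 arrays, each taken as 1 mouse. Neither the sex of the mice nor the number of transgenic lines is given. Should 2 arrays of a group come from 1 animal, the p-values would cover technical spread only.

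Chaperones bind proteins that are not yet folded or have lost their fold. Hsp70 proteins clasp short exposed stretches of a client in a cycle driven by ATP, Hsp40 (J-domain) proteins deliver the client and start that cycle, and exchange factors such as Hsp110 and BAG proteins release it. Hsp90 completes the folding of receptors and kinases, and the ring-shaped chaperonins enclose actin and tubulin in the cytosol (CCT) or matrix proteins in mitochondria (Hsp60 with Hsp10). Some of these genes are always active, whereas others are switched on by heat shock factor 1 when proteins unfold. In muscle, exercise, heat and injury are known to raise the inducible group.

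The arrays hold muscle RNA by their markers: all 10 fast-fibre and muscle genes listed, among them Ckm, Acta1 and Myh4, lay above the filter, with signals from 81682 to 284838. Ppard read 126049 and 98797 in MCK-PPARb muscle and 2169 and 2825 in non-transgenic muscle. Median signals of the arrays were 513 and 454 in the MCK-PPARb group and 466 and 431 in the non-transgenic group. Non-transgenic replicate 1 was the brightest array for all 10 of these genes. For Actb, whose 3-prime signal divided by its 5-prime signal reports RNA integrity, the ratio was 0.579 and 0.558 on the MCK-PPARb arrays and 0.481 and 0.592 on the non-transgenic arrays. Signals are in the deposited units throughout, and differences are log2 differences, MCK-PPARb minus non-transgenic.

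Among the chaperones, 3 genes rose in MCK-PPARb muscle, and all 3 are heat-inducible: Hspa1b, Hspa1a and Dnajb1. No member was called lower, and 40 of the 43 measured genes did not pass an adjusted p under 0.05 with limma. An unadjusted p under 0.05 was found for 7 of the 43, the 3 called genes among them, and for 744 of all 6841 genes tested. The share called higher was 6.98% of the measured members, against 0.409% of all genes tested, and the share called lower was 0, against 0.322%. In either direction, 0.731% of all genes were called. Of the 87 member probe sets above the filter, 6 were called, all of them higher and all belonging to these 3 genes, against 0.336% of all probe sets called higher. Probe sets of Hspa1a and Hspa1b may each catch RNA of the other, so these counts may hold fewer than 3 separate rises. The rises were large within the whole series: by size of difference from the top, Hspa1b stood in place 3, Hspa1a in place 6 and Dnajb1 in place 9 of 6841 genes. Because whole muscle was measured, more RNA in each cell and more cells of a type cannot be told apart.

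**Figure D1:**
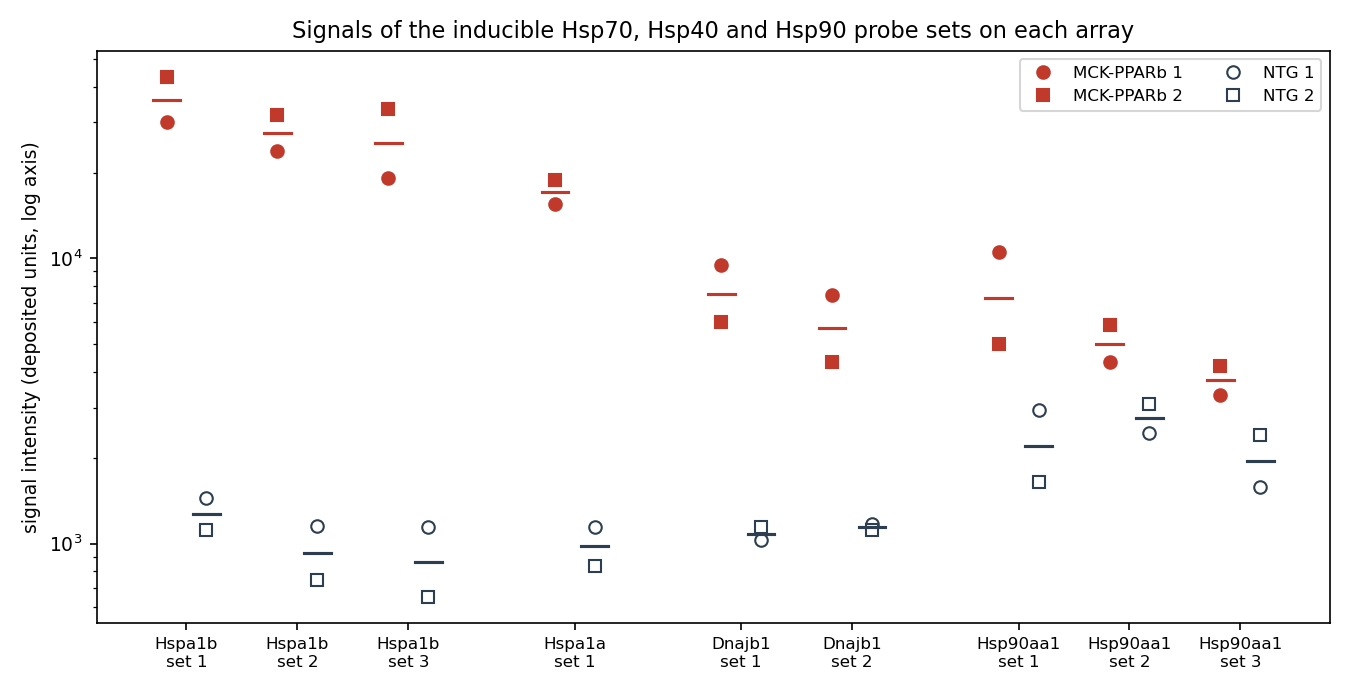
Signal intensity (log axis, deposited units) of every probe set of Hspa1b, Hspa1a, Dnajb1 and Hsp90aa1, numbered within a gene from the highest mean signal down. Filled red symbols are the 2 MCK-PPARb arrays, open dark symbols the 2 non-transgenic arrays, circles replicate 1, squares replicate 2, and bars geometric means. The groups lie far apart for the Hspa1b, Hspa1a and Dnajb1 probe sets and closer for those of Hsp90aa1.

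Hspa1b and Hspa1a are neighbouring genes on chromosome 17 that encode the stress-inducible Hsp70, the form that is scarce in resting cells and made in bulk after heat. The probe set of Hspa1b with the highest signal read 29981 and 43325 in MCK-PPARb muscle, against 1443 and 1113 in non-transgenic muscle. The second read 23700 and 31939 in MCK-PPARb muscle, against 1155 and 748 in non-transgenic muscle. The third read 19165 and 33351 in MCK-PPARb muscle, against 1141 and 652 in non-transgenic muscle. All 3 gave the same picture, with both MCK-PPARb arrays many times brighter than both non-transgenic arrays, and differences of 4.83 ± 0.24, 4.89 ± 0.27 and 4.87 ± 0.35 (SE, n = 2 per group, limma adjusted p = 0.000412, 0.000412 and 0.00157). The first corresponds to 28.4-fold, with a 95% interval of 4.26 to 5.40 on the log2 scale.

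The single probe set of Hspa1a read 15505 and 18762 in MCK-PPARb muscle, against 1146 and 836 in non-transgenic muscle. The groups were again far apart, by 4.12 ± 0.23 or 17.4-fold (SE, limma adjusted p = 0.000412). The coding parts of both transcripts are nearly identical, so their probe sets may each catch RNA of the other. Probe sequences were not at hand to check this, and how the rise divides between Hspa1a and Hspa1b is uncertain. Hspa1l, the third Hsp70 gene of that cluster and known mainly from testis, is not among the 48 and read 1395 and 1257 in MCK-PPARb muscle, against 568 and 652 in non-transgenic muscle. Its difference of 1.12 did not pass (limma adjusted p = 0.182).

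The RefSeq sequences (GRCm38.p6) of the 250 bases before the start sites of Hspa1a and Hspa1b show how alike these genes are also outside the transcript, and that of Dnajb1 is set beside them as the other gene that rose. Capitals mark the letters GAANNTTC or TTCNNGAA, a pair of the inverted repeats that heat shock factors bind. The windows lie on the minus strand at chr17:34972157-34972406 for Hspa1a and chr17:34959239-34959488 for Hspa1b, and on the plus strand at chr8:83607925-83608174 for Dnajb1.
Hspa1a: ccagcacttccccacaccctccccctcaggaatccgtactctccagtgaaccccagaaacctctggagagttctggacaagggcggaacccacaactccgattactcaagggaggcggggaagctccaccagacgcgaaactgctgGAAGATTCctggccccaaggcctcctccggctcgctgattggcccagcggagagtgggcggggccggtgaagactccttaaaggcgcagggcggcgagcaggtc
Hspa1b: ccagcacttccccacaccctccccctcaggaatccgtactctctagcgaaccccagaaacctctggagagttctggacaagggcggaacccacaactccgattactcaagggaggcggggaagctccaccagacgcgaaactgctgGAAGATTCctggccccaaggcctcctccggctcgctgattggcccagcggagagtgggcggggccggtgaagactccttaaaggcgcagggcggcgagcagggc
Dnajb1: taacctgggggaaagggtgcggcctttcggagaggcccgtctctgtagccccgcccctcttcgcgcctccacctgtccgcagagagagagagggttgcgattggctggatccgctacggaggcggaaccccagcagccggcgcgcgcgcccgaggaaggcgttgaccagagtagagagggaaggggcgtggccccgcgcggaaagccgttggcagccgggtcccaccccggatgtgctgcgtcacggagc

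The Hspa1a and Hspa1b windows were identical at 247 of 250 bases. Counted from 1 at the 5-prime end, with the base of Hspa1a first, they differ by C44T, T47C and T249G. Both hold the pair GAAGATTC, which begins 104 bases before the start site. The Dnajb1 window printed, and the window of its second annotated start, hold no such pair, which says only that these letters are not there.

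Promoter windows of 250 bases were found for 40 of the 48 members. Either form of the pair stood before at least 1 start site of 12 of these 40 genes (30%), against 14.5% of the 27025 genes in the table. By class, it stood before 5 of 10 heat-inducible cytosolic genes, 3 of 13 mainly constitutive ones, 0 of 5 genes of the endoplasmic reticulum, 2 of 4 mitochondrial genes and 2 of 7 chaperonin genes. The longer form has 3 alternating units (GAA, TTC, GAA or TTC, GAA, TTC, with NN between neighbours) and contains the pair. It stood before 3 members, Hspd1, Hspe1 and Dnajb6, and before 0.514% of all genes. The letters before Hspd1 and Hspe1 are the same bases read on opposite strands, counted for each gene, also in the counts of the pair. The nearly identical windows of Hspa1a and Hspa1b were likewise counted separately. The textbook element of PPAR receptors, AGGTCA followed by N and AGGTCA again, sought on both strands, stood in none of the members' windows and in those of 0.0407% of all genes. Letters this rare were unlikely to be met in the windows of 40 genes. Their absence therefore cannot tell whether the receptor acts on these genes.

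The stretch between Hspd1 and Hspe1, which are divergent neighbours, holds the 3-unit form, and Hsph1 holds the pair. These sites are shown as examples of the 3-unit form and of the pair. They are given as windows of 30 bases, at chr1:55088053-55088082 on the plus strand for Hspe1 and at chr5:149636351-149636380 on the minus strand for Hsph1, with the matching letters in capitals.
Hspe1: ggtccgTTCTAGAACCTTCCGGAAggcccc
Hsph1: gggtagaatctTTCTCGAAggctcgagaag

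Dnajb1 encodes the main inducible Hsp40, the partner that stimulates Hsp70 in the cytosol. Its brighter probe set read 9448 and 5970 in MCK-PPARb muscle, against 1033 and 1141 in non-transgenic muscle. Its other probe set read 7466 and 4329 in MCK-PPARb muscle, against 1170 and 1121 in non-transgenic muscle. In both probe sets the groups were well separated and MCK-PPARb replicate 1 was the higher array of its group, whereas replicate 2 was the higher one in every Hspa1a and Hspa1b probe set. The differences were 2.79 ± 0.27 (6.92-fold, limma adjusted p = 0.00705) and 2.31 ± 0.29 (adjusted p = 0.0212; SE, n = 2 per group).

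Hsp90aa1 encodes the inducible form of cytosolic Hsp90. It was chosen for a full description after its values were seen. Its brightest probe set read 10516 and 5027 in MCK-PPARb muscle, against 2948 and 1640 in non-transgenic muscle. The groups did not overlap, but the arrays within each group differed widely, and the difference of 1.73 ± 0.40 (3.31-fold) did not pass (limma adjusted p = 0.152). Its second probe set read 4319 and 5838 in MCK-PPARb muscle, against 2443 and 3100 in non-transgenic muscle. For the third, the MCK-PPARb arrays read 3329 and 4199 and the non-transgenic arrays 1581 and 2395. The groups stood apart, with MCK-PPARb on top, in all 3 probe sets of the gene, with the smaller differences of 0.87 ± 0.24 and 0.94 ± 0.27 in these (adjusted p = 0.233 and 0.248). It passed in 5 of 15 alternatives, among them those without non-transgenic replicate 1 (2.15, adjusted p = 0.0269), without MCK-PPARb replicate 2 (2.26, adjusted p = 0.0442), with each array centred on its median (1.62, adjusted p = 0.0398) and with the mean of its probe sets (1.18, adjusted p = 0.0329). Its difference was 1.19 without MCK-PPARb replicate 1 (adjusted p = 0.426).

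The other 7 genes of the heat-inducible cytosolic class did not pass. Bag3, a co-chaperone that joins Hsp70 to small heat shock proteins and clears damaged sarcomere proteins, read 12404 and 16074 in MCK-PPARb muscle, against 9623 and 9106 in non-transgenic muscle (0.59 ± 0.20, limma adjusted p = 0.332). Dnaja1, another cytosolic Hsp40, read 2393 and 2124 in MCK-PPARb muscle, against 1213 and 2014 in non-transgenic muscle (0.53). Both genes had their MCK-PPARb arrays above the non-transgenic ones, by a narrow margin for Dnaja1, whose second probe set differed by 0.18. Stip1, which links Hsp70 to Hsp90, differed by 0.23 and the Hsp40 gene Dnajb4 by 0.26.

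Hsph1, Ahsa1 and Chordc1 are heat-inducible genes whose values leaned the other way. Hsph1, the inducible Hsp110 that exchanges nucleotide on Hsp70, read 2575 and 2258 in MCK-PPARb muscle, against 2760 and 2846 in non-transgenic muscle. Ahsa1, the activator of the Hsp90 ATPase, read 5143 and 6304 in MCK-PPARb muscle, against 6683 and 7662 in non-transgenic muscle. Chordc1, an Hsp90 co-chaperone, read 2391 and 2316 in MCK-PPARb muscle, against 2401 and 3571 in non-transgenic muscle. In each, both MCK-PPARb arrays lay below both non-transgenic arrays, for Chordc1 by a small gap. The differences of -0.22, -0.33 and -0.32 did not pass (limma adjusted p = 0.783, 0.619 and 0.723), and their 95% intervals reached up to 0.27, 0.14 and 0.27. The inducible class therefore held genes far above, near and slightly below their non-transgenic level, with a class median of 0.53 over its 11 genes, against 0.011 over all genes tested. Without the 3 genes that rose, the median of the other 8 was 0.25.

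**Figure D2:**
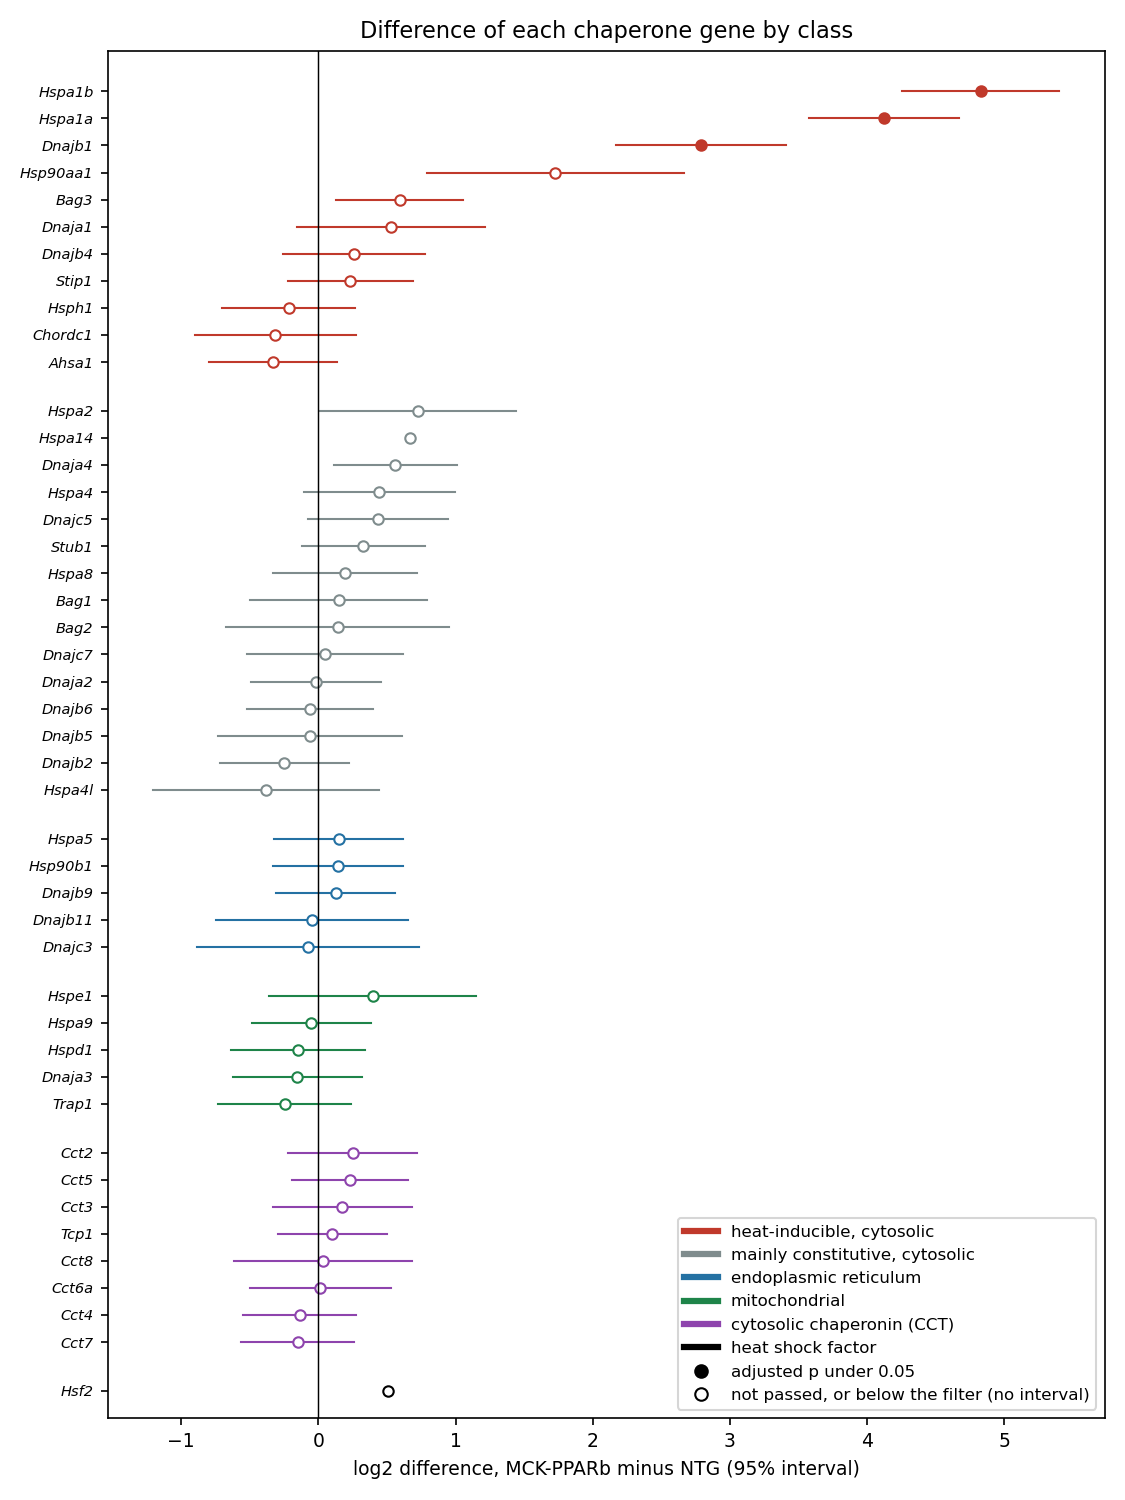
Log2 difference, MCK-PPARb minus non-transgenic, of each of the 45 chaperone genes with a probe set, in rows grouped by class and ordered by difference. Points are fitted differences, lines 95% intervals from limma, and filled points passed an adjusted p under 0.05; Hspa14 and Hsf2 lie below the filter and have no interval. Only Hspa1b, Hspa1a and Dnajb1 are filled, at 4.83, 4.12 and 2.79.

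The cytosolic genes taken as mainly constitutive numbered 16. No probe set was named here for Hsp90ab1, the constitutive Hsp90, which is not analysed here. Hspa14 lay below the filter, at 416 and 731 in MCK-PPARb muscle and 264 and 454 in non-transgenic muscle. Of the 14 measured genes, none was called, and 2 had an unadjusted p under 0.05. The class median was 0.15 over the 15 genes with a probe set, and 0.042 over the same genes with each array centred on its median. In these 15, differences ran from -0.38 for Hspa4l, of the Hsp110 family, to 0.72 for Hspa2.

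Hspa8, the constitutive Hsp70 that serves folding and clathrin uncoating in every cell, read 54359 and 62434 in MCK-PPARb muscle, against 60365 and 42943 in non-transgenic muscle. The groups overlapped, and the difference of 0.19 ± 0.22 (SE) had a 95% interval of -0.33 to 0.72 (limma adjusted p = 0.822). Without non-transgenic replicate 2 it was -0.051. Hspa2, best known from the testis, read 911 and 862 in MCK-PPARb muscle, against 498 and 577 in non-transgenic muscle, where it lay close to the filter level of 444 (0.72 ± 0.30, adjusted p = 0.462). Hspa4, the constitutive Hsp110, differed by 0.44 (adjusted p = 0.566), with MCK-PPARb arrays above the non-transgenic ones, although its dimmest measured probe set had the opposite sign (-0.21).

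Among the J-domain genes placed in the mainly constitutive class, Dnaja4 read 6583 and 7222 in MCK-PPARb muscle, against 5043 and 4328 in non-transgenic muscle. In all of its 3 probe sets the MCK-PPARb arrays were the higher ones, with differences of 0.56 ± 0.19, 0.64 ± 0.22 and 0.74 ± 0.26 (SE) that did not pass (limma adjusted p = 0.342, 0.338 and 0.351). The promoter window of Dnaja4 holds the heat shock factor pair, beginning 90 and 52 bases before the start site. The pair also stood before Dnajb6 and Stub1 of this class and before 14.5% of all genes. It therefore cannot settle whether Dnaja4 is rightly placed as constitutive. Dnajc5, which encodes the cysteine string protein of synaptic vesicles, read 3450 and 3057 in MCK-PPARb muscle, against 2170 and 2655 in non-transgenic muscle (0.44 ± 0.22, adjusted p = 0.553). Dnajb6, which is mutated in a limb-girdle muscular dystrophy of humans, read 4285 and 4579 in MCK-PPARb muscle, against 5021 and 4239 in non-transgenic muscle. Its groups overlapped (-0.059), and its other measured probe sets had the opposite sign, at 0.52 and 0.31, without passing. Dnajb5 differed by -0.062, while another of its probe sets read 4185 and 4108 in MCK-PPARb muscle against 6049 and 5674 in non-transgenic muscle (-0.50, adjusted p = 0.384).

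The remaining J-domain genes Dnaja2, Dnajb2 and Dnajc7 had differences of -0.021, -0.25 and 0.051. Bag1, an exchange factor of Hsp70, read 9924 and 8963 in MCK-PPARb muscle, against 6416 and 11286 in non-transgenic muscle. Its arrays overlapped because the non-transgenic ones lay on either side of the MCK-PPARb ones, and the difference of 0.15 ± 0.28 (SE, limma adjusted p = 0.902) was -0.26 without non-transgenic replicate 1. Bag2, which restrains the ligase encoded by Stub1, differed by 0.14. Stub1, the ubiquitin ligase CHIP that marks Hsp70 clients for degradation, read 8519 and 10499 in MCK-PPARb muscle, against 7562 and 7509 in non-transgenic muscle, a difference of 0.33 that did not pass (limma adjusted p = 0.607).

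Chaperones of the endoplasmic reticulum, where secreted and membrane proteins fold, differed little. Hspa5, the Hsp70 known as BiP, read 7315 and 6151 in MCK-PPARb muscle, against 6621 and 5543 in non-transgenic muscle. Hsp90b1, the Hsp90 known as GRP94, read 3970 and 3598 in MCK-PPARb muscle, against 3163 and 3713 in non-transgenic muscle. Dnajb9, an Hsp40 partner of BiP, read 7415 and 7927 in MCK-PPARb muscle, against 6530 and 7572 in non-transgenic muscle. The groups overlapped for all 3, with differences of 0.15 ± 0.20, 0.14 ± 0.20 and 0.12 ± 0.19 (SE, limma adjusted p = 0.860, 0.867 and 0.872). The 95% interval for Hspa5 was -0.32 to 0.62, which lies below the whole interval of Hspa1b. Dnajb11 and Dnajc3 differed by -0.046 and -0.076, and Hspa13 had no probe set named here and is not analysed here. The class median was 0.12, none of the 5 measured genes had an unadjusted p under 0.05, and none had groups that did not overlap.

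Mitochondrial chaperones import and fold the proteins of the matrix. Hspa9, the mitochondrial Hsp70 that pulls proteins in, read 8370 and 7839 in MCK-PPARb muscle, against 7764 and 9087 in non-transgenic muscle. Hspd1, the Hsp60 chaperonin, read 10759 and 8731 in MCK-PPARb muscle, against 9569 and 12096 in non-transgenic muscle. The groups overlapped in both, and the differences of -0.052 ± 0.19 and -0.15 ± 0.21 (SE, limma adjusted p = 0.950 and 0.861) had 95% intervals of -0.49 to 0.38 and -0.64 to 0.34. Both differences changed sign without non-transgenic replicate 2, to 0.061 and 0.018, and Hspd1 was also above 0 without MCK-PPARb replicate 2. Hspe1, the Hsp10 lid of that chaperonin, read 6726 and 8534 in MCK-PPARb muscle, against 4099 and 8070 in non-transgenic muscle. Its difference of 0.40 ± 0.32 (SE, limma adjusted p = 0.729) turned to -0.091 without non-transgenic replicate 1, and its other probe set differed by -0.20.

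Dnaja3, the mitochondrial Hsp40, read 4087 and 4978 in MCK-PPARb muscle, against 4771 and 5268 in non-transgenic muscle (-0.15 ± 0.20, limma adjusted p = 0.851). Trap1, the mitochondrial Hsp90, read 3551 and 4381 in MCK-PPARb muscle, against 4390 and 4973 in non-transgenic muscle, where MCK-PPARb replicate 2 lay just under the lower non-transgenic array (-0.24 ± 0.21, adjusted p = 0.742). None of the 5 mitochondrial genes had an unadjusted p under 0.05, and the class median was -0.15, with values of -0.26 to 0.018 over the alternatives.

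The cytosolic chaperonin CCT is a double ring of 8 different subunits, each from its own gene, that folds actin and tubulin. Tcp1, which encodes its alpha subunit, read 16343 and 17087 in MCK-PPARb muscle, against 15672 and 15478 in non-transgenic muscle. Cct5 read 8362 and 8725 in MCK-PPARb muscle, against 6845 and 7756 in non-transgenic muscle. Cct2 read 8541 and 8880 in MCK-PPARb muscle, against 6412 and 8346 in non-transgenic muscle. In these 3 the MCK-PPARb arrays were the higher ones by small margins, at 0.10 ± 0.17, 0.23 ± 0.18 and 0.25 ± 0.20 (SE, limma adjusted p = 0.889, 0.722 and 0.725), and Tcp1 was at -0.0044 with each array centred on its median.

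Cct7 and Cct4 leaned the other way. Cct7 read 6860 and 6765 in MCK-PPARb muscle, against 7331 and 7820 in non-transgenic muscle (-0.15 ± 0.18, limma adjusted p = 0.824). Cct4 read 10082 and 9930 in MCK-PPARb muscle, against 11576 and 10465 in non-transgenic muscle (-0.14). Both stood below their non-transgenic arrays, but another measured probe set of Cct7 differed by 0.28, and 2 of those of Cct4 were above 0. Cct3 read 12260 and 13937 in MCK-PPARb muscle, against 13681 and 9825 in non-transgenic muscle, a difference of 0.17 ± 0.22 (SE, adjusted p = 0.838) that was -0.066 without non-transgenic replicate 2, and 3 of its other 4 measured probe sets were below 0. Cct6a and Cct8 differed by 0.013 and 0.035. None of the 8 subunits passed (limma adjusted p = 0.722 to 0.989), none had an unadjusted p under 0.05, and the class median was 0.068, or -0.038 with each array centred on its median.

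**Figure D3:**
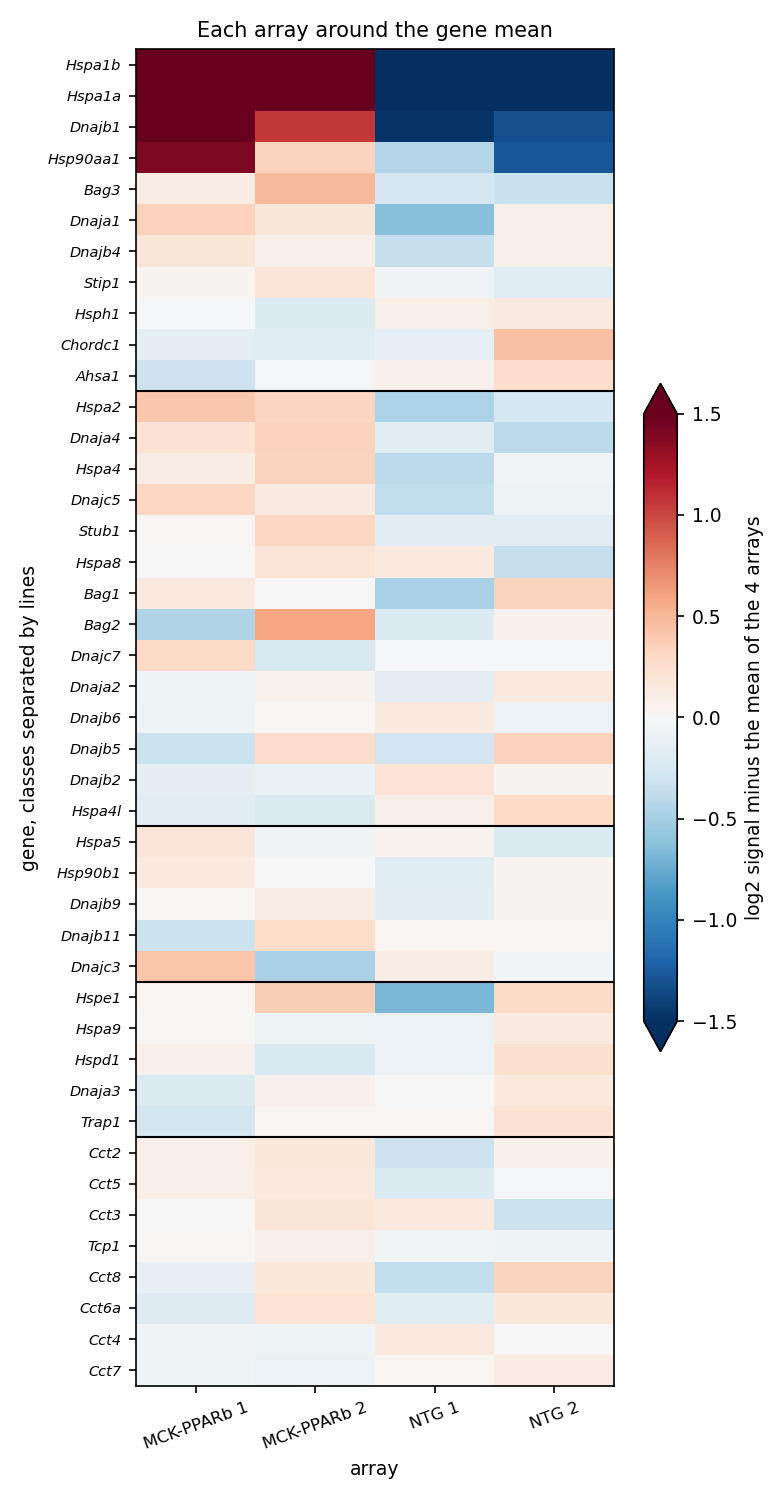
Log2 signal of each of the 43 measured chaperone genes on each array, minus the mean of the 4 arrays, with MCK-PPARb arrays on the left; red is above the mean and blue below, and the colour scale ends at 1.5 in each direction. Lines separate the classes in the order heat-inducible, mainly constitutive, endoplasmic reticulum, mitochondrial and CCT. The strongest contrast between the groups is in Hspa1b, Hspa1a, Dnajb1 and Hsp90aa1, while Bag2, Dnajb11, Dnajc3 and Hspe1 vary more within a group than between groups.

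Transcription factors of the heat shock response were hardly covered. Hsf2, heat shock factor 2, read 29.7 and 63.9 in MCK-PPARb muscle and 99.6 and 9.40 in non-transgenic muscle, far below the filter level, so it was not tested. Hsf1, the factor that switches on the inducible genes, had no probe set named here and is not analysed here.

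Set side by side, the classes differed in their counts. Genes called higher numbered 3 of 11 in the heat-inducible cytosolic class, 0 of 14 measured in the mainly constitutive class, 0 of 5 in the endoplasmic reticulum, 0 of 5 in mitochondria and 0 of 8 in CCT. A difference between classes was not tested, and the probe sets of Hspa1a and Hspa1b may not be separate readings. Groups that did not overlap were found for 23 of the 43 measured members, 15 above and 8 below (53.5%, against 42.9% of all genes tested, with 22.2% above and 20.8% below). They numbered 10 of 11 in the heat-inducible class, 7 above and 3 below, and 13 of 32 in the others. The summed signal of the heat-inducible class was 99139 and 111136 in MCK-PPARb muscle, against 36385 and 37832 in non-transgenic muscle. Without Hspa1a, Hspa1b and Dnajb1 it was 44205 and 43079 in MCK-PPARb muscle, against 32763 and 34743 in non-transgenic muscle. Hsp90aa1, which did not pass, gave 10516 and 5027 of the former and 2948 and 1640 of the latter. Of these 8 genes 5 had a difference above 0 and 3 below.

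Other genes of the pathway gave no further call. Of 9 further heat-inducible genes 7 were measured, and none was called. Cryab and Hspb1, small heat shock proteins that hold unfolded proteins of the sarcomere, were the ones of smallest p. Cryab read 58788 and 64416 in MCK-PPARb muscle, against 30165 and 33991 in non-transgenic muscle (0.94, limma adjusted p = 0.0939). Hspb1 read 76796 and 81811 in MCK-PPARb muscle, against 45721 and 36968 in non-transgenic muscle (0.95, adjusted p = 0.111). Both genes had their groups apart, at about the same difference, and the list median was 0.34.

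Of 34 further co-chaperones, which were not chosen by compartment, 23 were measured and none was called. Over the 27 with a probe set, 17 differences were above 0 and 10 below, with a median of 0.12. The 2 genes of smallest p were both lower. Dnajc27 read 2558 and 2541 in MCK-PPARb muscle, against 4296 and 5827 in non-transgenic muscle (-0.97, limma adjusted p = 0.146). Dnajc21, a J-domain protein of ribosome assembly, differed by -1.12 (adjusted p = 0.378). Prefoldin hands unfolded actin and tubulin to CCT, and of its 6 listed genes 5 were measured. None of them was called, and 2 differences were above 0 (Pfdn2 at 0.43 and Pfdn5 at 0.24) and 3 below. The 2 of smallest p were both lower. Vbp1 read 2752 and 2484 in MCK-PPARb muscle, against 4325 and 5239 in non-transgenic muscle (-0.86, limma adjusted p = 0.165), and Pfdn6 differed by -0.47.

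Among 15 further genes of the endoplasmic reticulum 13 were measured, with none called and a median of 0.036 over all 15. The ones of smallest p were Pdia3, a disulfide isomerase (0.48, limma adjusted p = 0.450), and Canx, the lectin chaperone calnexin (0.24). Among 11 further mitochondrial chaperones and proteases 10 were measured, with none called and a median of 0.021. Grpel1, the exchange factor of Hspa9, differed by 0.33 (adjusted p = 0.645) and Dnajc15 by -0.25.

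Markers of other states and cell types were read on the same arrays. Of 12 immediate early genes, which respond to stress and handling within minutes, 9 were measured and none was called. The median difference over all 12 was 0.30. Among the 9 measured, 2 genes, Atf3 and Jun, had an unadjusted p under 0.05 and are named after their values were seen. Atf3, a stress-induced transcription factor, read 2304 and 1492 in MCK-PPARb muscle, against 800.3 and 208 in non-transgenic muscle (2.19, limma adjusted p = 0.232). Jun, a subunit of AP-1, read 9559 and 10582 in MCK-PPARb muscle, against 6788 and 4689 in non-transgenic muscle (0.83, adjusted p = 0.228). In both the MCK-PPARb arrays lay above the non-transgenic ones. Over all 12 genes, 8 differences were above 0 and 4 below, the lowest being -0.45 for Dusp1. The list's summed signal was 27680 and 28675 in MCK-PPARb muscle and 20517 and 23221 in non-transgenic muscle. Jun gave 9559 and 10582 of the former and 6788 and 4689 of the latter. The 7 slow-fibre genes were all measured, none was called, and their sum was 168756 and 196599 in MCK-PPARb muscle and 79879 and 121153 in non-transgenic muscle. Their median difference was 1.10 and 5 of the 7 had an unadjusted p under 0.05, with a lowest adjusted p of 0.0540 (limma). The sums of 5 adipocyte markers, mostly Adipoq and Retn, were 4781 and 5314 in MCK-PPARb muscle and 2536 and 2901 in non-transgenic muscle. Those of 5 Schwann cell markers, mostly Mbp and Pmp22, were 30447 and 34168 in MCK-PPARb muscle and 18251 and 20115 in non-transgenic muscle. Of these, 2 adipocyte and 3 Schwann cell markers were measured, and none was called (limma, lowest adjusted p = 0.194 and 0.0928). Each list had 3 differences above 0 and 2 below. The lowest were -0.80 for Lep and -0.94 for S100b, both below the filter. Macrophage markers summed to 8072 and 8199 in MCK-PPARb muscle and 7870 and 7193 in non-transgenic muscle, all 3 neutrophil markers lay below the filter, none of 4 endothelial and 5 fibroblast markers was called, and no marker read 0. The part of these cells and states in the rise of Hspa1a, Hspa1b and Dnajb1 was not tested.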

How the data were processed

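Total RNA of gastrocnemius muscle was labelled as biotinylated cRNA and hybridised to 4 Affymetrix arrays, per the labels' protocols. The authors deposited a linear signal intensity for each probe set on each array. The submitters' processing notes name MAS5 and GCOS, with no version. The mean intensity after trimming 2% at each end was 1501 on every array, so the arrays had been scaled alike. The number of arrays limits the precision.

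After 64 control probe sets were left out, 22626 remained; 20380 had 1 gene symbol, updated through gene numbers with the GRCm38.p6 gene table, 691 had several and 1555 none here, and genes were named only from the first kind. Log2 was taken of the signals as they stood. Probe sets with a mean log2 signal above the median of all (444 signal units) were kept, 11313 in number, for 6841 genes. The comparison used limma 3.58.1 under R 4.3.3 (lmFit, eBayes with an intensity trend, two-sided), with p-values adjusted after Benjamini-Hochberg across all kept probe sets. An exact permutation test cannot go below p = 0.333 with 2 arrays against 2. The script was tested on simulated data.

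The members, their classes and the other lists were chosen with earlier results of these data known, so no list has a test. Classes were assigned by where a protein acts and whether heat is known to raise its transcript, and the placing of single genes, such as Dnaja4, can be disputed. Values are given in full for members called, for every probe set of Hspa1a and Hspa1b, and for the 3 of smallest p and the 2 of highest mean signal in each class, and the 2 of smallest p in each of the 5 lists of other pathway genes are named with their difference. Hsp90aa1 was added in full after its values were seen. Class medians cover every member with a probe set, also those below the filter, except under the stricter filter and the averaging of kept probe sets. Alternatives tried: quantile normalization, centring on the median, a pseudocount of 33.9, other filters, raised low signals, other eBayes settings, a replicate block, leaving out each array, leaving out _s_at and _x_at probe sets, and averaging each gene's probe sets. Promoter windows are the 250 bases before each RefSeq start site.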

Additional observations from a re-analysis of the deposited data

How the results depend on the processing

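Hspa1a, Hspa1b and Dnajb1 were called higher in all 15 alternatives, with differences of 3.90 to 4.35, 4.56 to 5.10 and 2.46 to 3.12 and adjusted p up to 0.00641, 0.00641 and 0.0424. Members called numbered 3 or 4, the fourth being Hsp90aa1, and none was called lower. Hsp90aa1 passed in 5 of the 15, including the replicate block (1.73, adjusted p = 0.000217), and ran from 1.18 to 2.26. All probe sets called numbered 68, and 116 with median centring, which lowers every difference by 0.11 on the log2 scale (a change of -0.11), 21 without the intensity trend, 377 with the replicate block and 36 to 159 when an array was left out. The labels do not say that a replicate number marks a litter or day. Over the kept probe sets, deviations of same-numbered arrays correlated at r = 0.28.

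The median of the heat-inducible class, 0.53, was 0.42 with median centring, 0.35 with each gene's probe sets averaged and 0.30 to 0.55 when an array was left out. That of the mainly constitutive class was 0.042 with median centring and 0.063 to 0.29 when an array was left out. That of CCT was 0.097 with quantile normalization, -0.038 with median centring, 0.024 without _s_at and _x_at probe sets and -0.019 to 0.19 when an array was left out. Of 344 named member values under alternatives, 327 kept direction and side of the threshold, 5 passed newly (Hsp90aa1) and 12 turned sign, none of them called. Leaving out an array gave -0.051 to 0.44 for Hspa8, -0.26 to 0.56 for Bag1, -0.091 to 0.89 for Hspe1, -0.32 to 0.018 for Hspd1, -0.17 to 0.061 for Hspa9 and -0.066 to 0.41 for Cct3. Without _s_at and _x_at probe sets Hspe1 was at -0.20 and Cct3 at -0.094, with the mean of probe sets Cct3 was at -0.074 and Cct7 at 0.062, and with median centring Tcp1 was at -0.0044. The cause of these shifts was not tested. With 2 arrays per group, members that did not pass may still differ within their intervals.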
